A study of Mus musculus with 3 samples.

Results

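The genes described here encode the subunits, activators, inhibitor and assembly chaperones of the proteasome in mouse dorsal skin, and 1 more gene, Psmc3ip, that shares the symbol's start but encodes no proteasome subunit. They were taken as every listed gene symbol that starts with Psma to Psmg followed by a digit and has at least 20 unique molecular identifiers (UMIs, each standing for 1 captured transcript) over the 3 libraries. This gave 49 of 50 such symbols, out of 31053 genes listed and 17906 with at least 20 UMIs. Psma8, with 25 UMIs, was just inside the minimum, and Psmb11, with 13, just outside it. Single-cell RNA sequencing was run on skin of 7-week-old C57BL/6 mice, with 1 library for each of 3 groups. The group called normal received glycerin as its control treatment. The group called IMQ received imiquimod, whose application to mouse skin is a common model of psoriasis-like inflammation. The group called IMQ+celastrol received imiquimod and celastrol, a plant triterpenoid that has been reported to inhibit the proteasome. Whether a library pooled several animals is not given in the sources used here.

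Proteasomes are the proteases that degrade most ubiquitin-tagged proteins of a cell. The barrel, the 20S core, is built of rings of alpha and beta subunits, and 3 beta subunits, encoded by Psmb5, Psmb6 and Psmb7, cut peptide bonds. A regulatory particle of a base with ATPases and a lid caps the core to form the 26S proteasome, which recognises, unfolds and feeds in substrates. Interferon induces Psmb8, Psmb9 and Psmb10, whose products take the place of these catalytic subunits in the immunoproteasome, which favours peptides that fit MHC class I molecules. When the proteasome is inhibited, cells are known to induce the standard subunit genes together through the transcription factor NRF1, encoded by Nfe2l1, which binds antioxidant response elements. Skin epithelium, dermal fibroblasts and resident immune cells all carry proteasomes, and immune cells are known for a high content of the immunoproteasome.

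The libraries held 77880943 UMIs (normal), 119831835 (IMQ) and 103267738 (IMQ+celastrol), in 10565, 8236 and 6777 cell barcodes. After filters 9558, 7495 and 6092 cells were kept, with median UMIs per cell of 5740, 8862 and 10558. Pairs of libraries shared 15 to 26 cell barcodes. Clustering gave 43 clusters, of which 11 were left unnamed because their marker score, its margin over the next name or their leading genes did not meet the rule for a name. Keratinocyte-like cells numbered 2435, 400 and 904 in normal, IMQ and IMQ+celastrol, and fibroblast-like cells 2575, 3256 and 2115. Different clusters filled the keratinocyte-like class in each library. In normal skin these were mainly cluster 4 (led by Fcgbp, Krt15 and Ccl27a), cluster 7 (Gnmt, Lhx2, Tbx1), cluster 28 (Krt77, Mt4) and cluster 35 (Fcgbp, Krt15, Hist1h2ae). In IMQ skin 369 of the 400 cells belonged to cluster 10 (Ube2c, Top2a, Cdk1), and in IMQ+celastrol 341 belonged to cluster 10 and 527 to cluster 16 (Col17a1, Chit1, Wnt4). Median UMIs per keratinocyte-like cell were 8288, 46436 and 27453.

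Levels are given as UMIs of a gene, or of a list of genes, per 1000000 UMIs of the same cell class and library (CPM), with exact 95% Poisson intervals. With 1 library in each group no test between groups was possible, and a difference between treatments cannot be told apart from a difference between libraries. All intervals cover counting error only. A gene was measured in a class when it had at least 50 UMIs there over the 3 libraries, and was counted as higher or lower when its CPM differed by at least 1.5-fold. Of the 49 members, 48 were measured in both keratinocyte-like and fibroblast-like cells, and Psma8, the testis form of an alpha subunit, in neither. Both comparisons below use the IMQ library, so their values are not independent. Fewer cells of a type do not enter these levels, but a class can hold a different mix of cells in each library.

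The 31 standard 26S subunits together took their largest share of transcripts in inner root sheath or hair shaft-like cells and cluster 19. Their smallest share was in neutrophil-like cells. In normal skin they summed to 8568 CPM (8494 to 8643) in inner root sheath or hair shaft-like cells and to 8845 CPM in cluster 19, an unnamed cluster led by Krt28 and Hist1h2ae. Keratinocyte-like cells had 5642 CPM and dermal papilla-like cells 5614 CPM, values close to each other. In the normal library T cell-like cells had 4639 CPM, dendritic-like cells 4302 CPM and fibroblast-like cells 4222 CPM. Neutrophil-like cells, counted in the treated libraries, had 1656 CPM in IMQ and 1408 CPM in IMQ+celastrol. Inner root sheath or hair shaft-like cells and cluster 19 thus had larger sums than any other class or cluster plotted did in any library. Cluster 29, unnamed, led by Scd1, Elovl6 and Cidea and not plotted, came next, with 8046 CPM in normal and 7415 CPM in IMQ. Not all follicle-like clusters were this high, since cluster 7 (Gnmt, Lhx2, Tbx1) had 6202 CPM in normal.

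**Figure D1:**
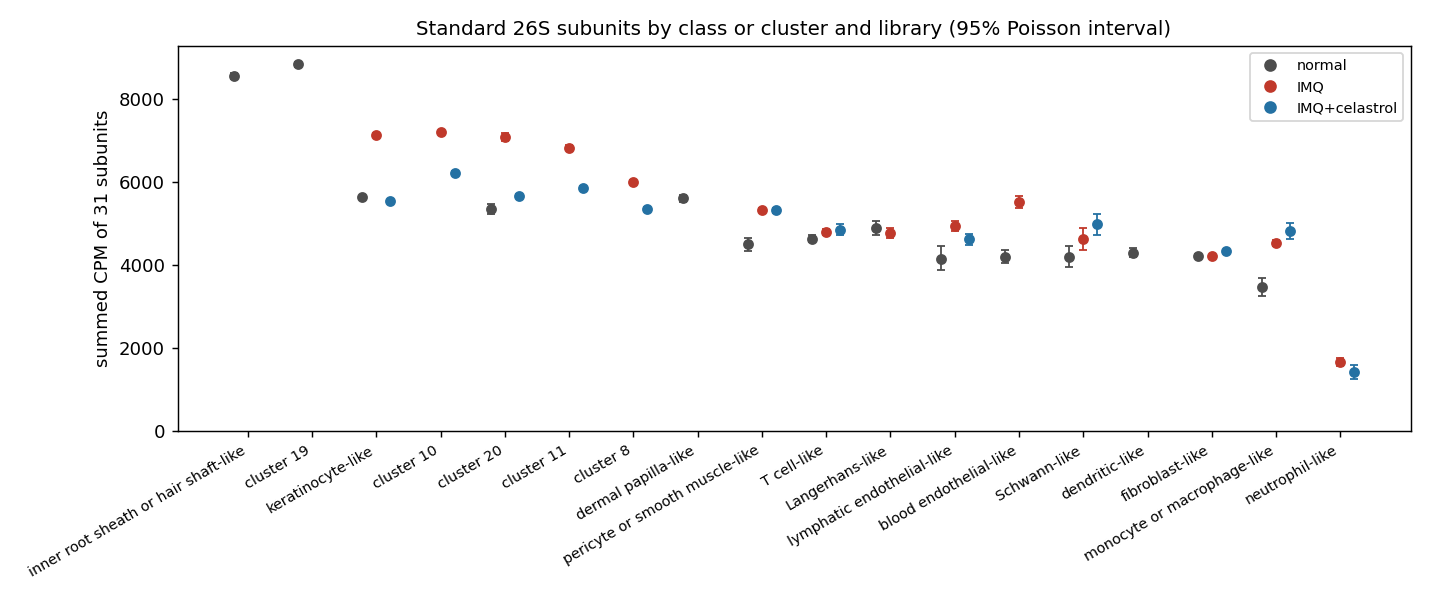
Summed CPM of the 31 standard 26S subunits (vertical axis) in each cell class or cluster (horizontal axis), 1 point per library with at least 50 cells, with exact 95% Poisson intervals. Hair follicle cells of normal skin lie highest (8568 and 8845 CPM) and neutrophil-like cells lowest (1656 and 1408 CPM), and in keratinocyte-like cells IMQ (7146 CPM) lies above normal (5642) and IMQ+celastrol (5547).

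In keratinocyte-like cells the standard 26S subunits were higher in IMQ than in normal skin and lower again in IMQ+celastrol. Their sum was 5642 CPM (5611 to 5674) in normal, 7146 (7110 to 7183) in IMQ and 5547 (5520 to 5574) in IMQ+celastrol. The IMQ interval lay apart from both others. The median log2 ratio of the 31 subunits was 0.40 for IMQ over normal, beside a median of -0.15 over all genes measured in the class, and 30 of the 31 lay above that median. Of the 31 subunits 8 were at least 1.5-fold higher and none lower. For IMQ+celastrol over IMQ the median was -0.38 beside -0.07 over all genes, with 1 subunit above that median, none at least 1.5-fold higher and 2 at least 1.5-fold lower. Among all 48 measured members 12 were higher and 4 lower in IMQ than in normal, where 17.6% of all measured genes were higher and 30.6% lower. From IMQ to IMQ+celastrol none was higher and 6 were lower, where 10.1% of all genes were higher and 10.2% lower.

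These 2 comparisons depended on which epithelial cells entered the class. With every cluster given the name of its best marker score, the standard 26S median for IMQ over normal was 0.089, and with only normal cluster 35 and IMQ cluster 10, an alternative chosen after the data were seen, it was 0.27. The median for IMQ+celastrol over IMQ was -0.20 when both libraries were given the same mix of clusters, and the 6 lower members became 0 under that setting, under clustering of each library by itself and with every cluster named. The balance of that count also turned with the scaling, to 3 higher and 1 lower with mitochondrial, ribosomal and the top 50 genes out of the total, and to 2 higher and 1 lower with median-of-ratios scaling. For IMQ over normal the count of members was 4 higher and 5 lower with every cluster named, and 18 higher and 3 lower with median-of-ratios scaling. The summed level of 8 cell cycle genes moved the same way as the standard 26S subunits, with 591 CPM in normal, 1359 in IMQ and 1094 in IMQ+celastrol keratinocyte-like cells. Within the normal library cluster 35 had 3302 CPM of the cell cycle list and 6208 CPM of the standard 26S subunits, against 5061 CPM of the latter in cluster 4 and 6202 CPM in cluster 7. The part of cell cycle in the differences between libraries was not tested.

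Within single epithelial clusters that both treated libraries filled, the standard 26S subunits were also lower in IMQ+celastrol, by less than in the class. In cluster 10 they summed to 7203 CPM in IMQ and 6235 CPM in IMQ+celastrol, with a median log2 ratio of -0.20 and 0 of 31 above the all-gene median. This -0.20 is the value given above for the same mix of clusters. In cluster 8, led by the cornified envelope genes Sprr2d, Cnfn and Sprr1b, the sums were 6012 and 5350 CPM and the median -0.16, with 2 subunits above the all-gene median. In cluster 11, led by Krt79, Sdr16c6 and Defb6, the sums were 6838 and 5855 CPM and the median -0.23, with 4 above. All 3 clusters thus showed the same direction, and the cell cycle list in cluster 10 moved the other way, from 1402 to 1937 CPM. Cluster 20, led by Lmo1, Sostdc1 and Aldh3a1, was the epithelial cluster filled by all 3 libraries (171, 92 and 254 cells). Its standard 26S subunits summed to 5348 CPM in normal, 7084 in IMQ and 5670 in IMQ+celastrol. Their median log2 ratio in cluster 20 was 0.38 for IMQ over normal, with 9 of 31 at least 1.5-fold higher and all 31 above the all-gene median of 0.15. Among the 47 measured members of cluster 20, 14 were higher and 3 lower, where 24.6% of all its genes were higher and 15.1% lower. The cluster 20 median for IMQ+celastrol over IMQ was -0.35, with 1 standard subunit above the all-gene median of -0.065 and 1, Psmd14, at least 1.5-fold lower. Of the 47 members 1, Psmb8, was higher and 1 lower there, where 7.99% of all genes were higher and 7.86% lower.

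Fibroblast-like cells did not show this pattern in their summed level. Their standard 26S subunits summed to 4222 CPM in normal, 4214 in IMQ and 4346 in IMQ+celastrol. The median log2 ratio was 0.09 for IMQ over normal, beside 0.01 over all genes, with 1 of 31 subunits higher and none lower. For IMQ+celastrol over IMQ it was 0.06, beside 0.14 over all genes, with none higher or lower, and its sign turned under median-of-ratios scaling (-0.079). In that comparison 6 of the 31 subunits lay above the all-gene median, so relative to all genes most were lower here too. Among all 48 measured members 1 was higher and 5 lower in IMQ than in normal, where 15% of all genes were higher and 15.8% lower, and with the same mix of clusters 1 was lower. From IMQ to IMQ+celastrol 3 members were higher and 1 lower, where 12.5% of all genes were higher and 6.07% lower. Single fibroblast-like clusters differed in direction for IMQ+celastrol over IMQ, where the standard 26S median was -0.19 for cluster 1, 0.37 for cluster 2 and 0.21 for cluster 3, while clusters 6, 12 and 13 gave medians between -0.0023 and 0.0047. The numbers of the 31 subunits above the all-gene median of their cluster were 3, 30 and 22 in clusters 1, 2 and 3. In clusters 6, 12 and 13 they were 3, 10 and 12.

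The other classes held fewer cells. For IMQ over normal the standard 26S median log2 ratio was 0.45 in blood endothelial-like cells and 0.31 in monocyte or macrophage-like cells. It was 0.27 in pericyte or smooth muscle-like, 0.24 in lymphatic endothelial-like, 0.06 in T cell-like and -0.042 in Langerhans-like cells. The T cell-like value pooled clusters that differed, at -0.49 in cluster 9 (Cd7, Cd3g), 0.53 in cluster 22 (Il17a, Il22) and 0.0091 in cluster 23 (Ccl5, Ifng). All 31 subunits lay above the all-gene median in blood endothelial-like cells, 29 in pericyte or smooth muscle-like cells and 25 in monocyte or macrophage-like cells, against 15 in Langerhans-like cells. The monocyte or macrophage-like class was mostly cluster 36 (C1qb, C1qa, C1qc) in normal, with 108 of 129 cells, and mostly cluster 15 (Chil3, Lyz2, Cybb) in IMQ, with 501 of 558, and within cluster 36 the standard 26S median was 0.70. In blood endothelial-like cells the cell cycle list also differed, with 32.6 CPM in normal and 671 CPM in IMQ, and its part in the result was not tested. The standard 26S medians for IMQ+celastrol over IMQ were closer to 0, at 0.12 in monocyte or macrophage-like cells, 0.03 in pericyte or smooth muscle-like cells, 0.02 in Schwann-like cells, 0.01 in T cell-like cells and -0.10 in lymphatic endothelial-like cells. No named class outside the epithelium with at least 50 cells in both libraries had a median as low as keratinocyte-like cells (-0.38). That class value stands beside -0.20, -0.16 and -0.23 within epithelial clusters 10, 8 and 11. Outside the epithelium the unnamed cluster 33, led by Des, Mylk and Synpo2, had -0.27, with 3 of 31 subunits above the all-gene median. Fibroblast-like cluster 1 had -0.19, also with 3 above. Lower values within clusters were thus not confined to the epithelium.

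**Figure D2:**
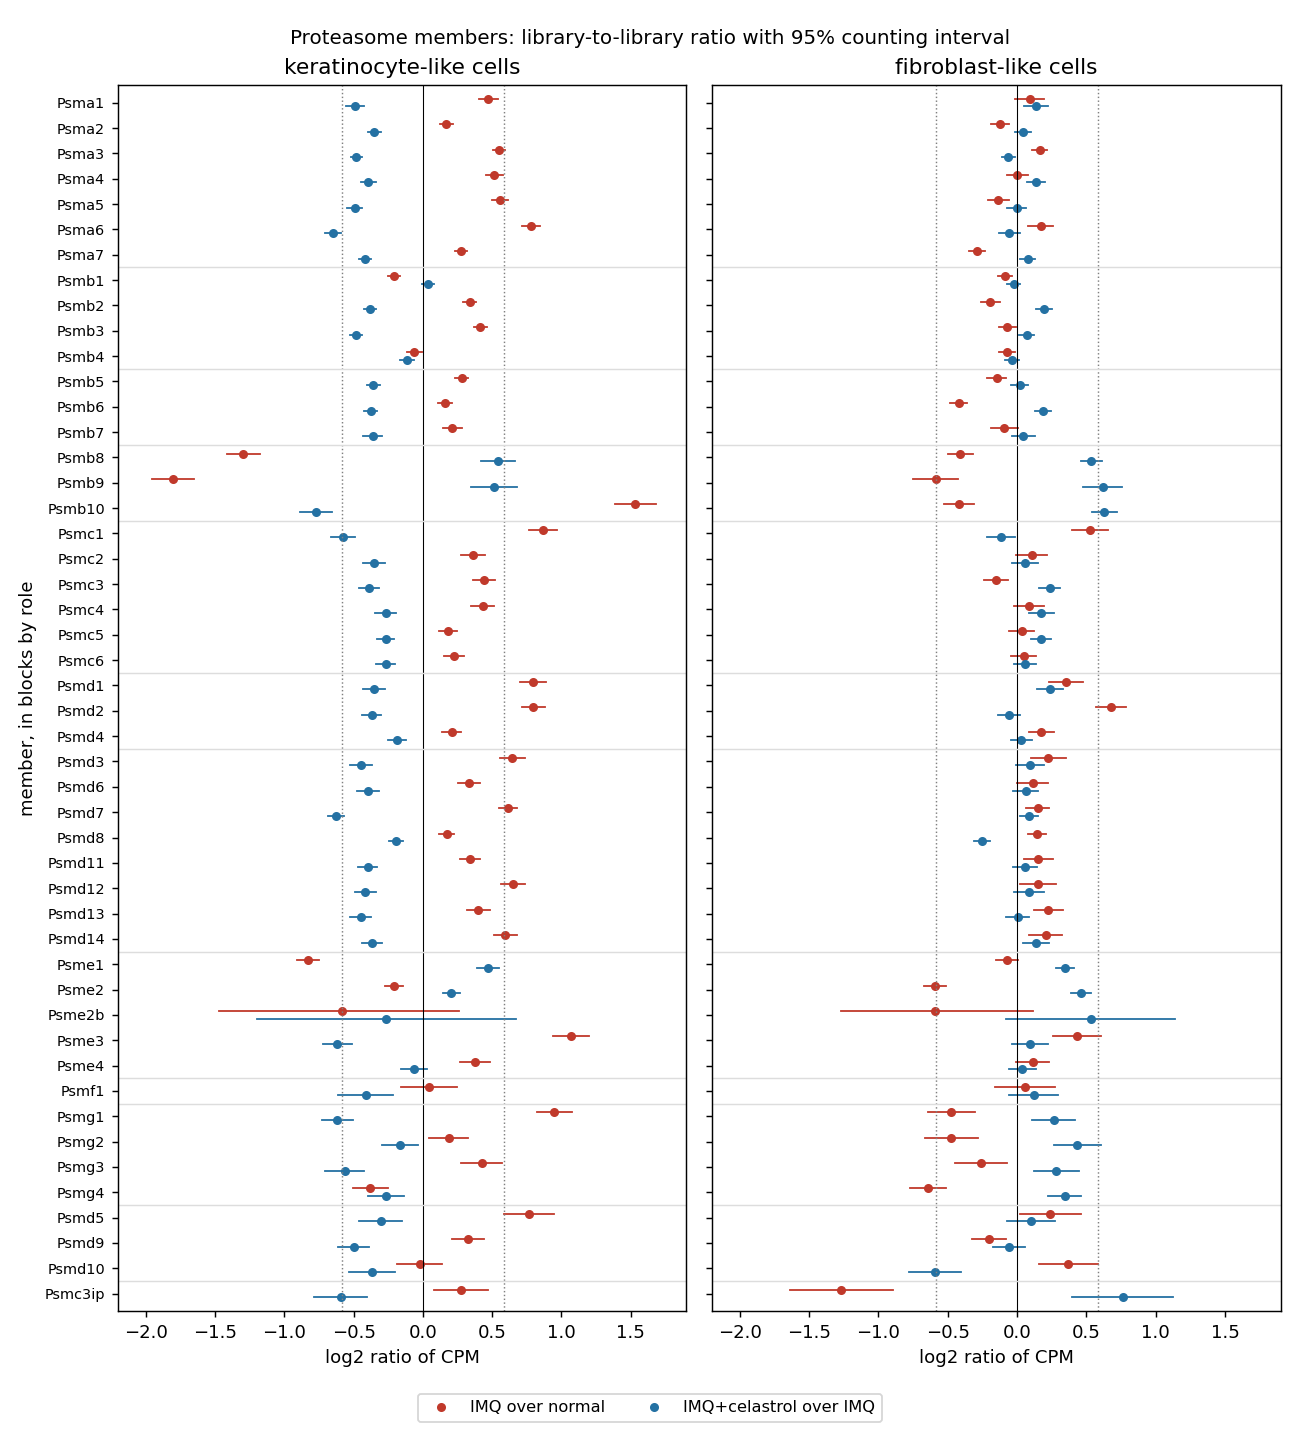
Log2 ratio of CPM (horizontal axis) for each of the 48 measured members (vertical axis, in blocks by role) in keratinocyte-like (left) and fibroblast-like cells (right), red for IMQ over normal and blue for IMQ+celastrol over IMQ. Bars are 95% counting intervals and dotted lines mark 1.5-fold. In keratinocyte-like cells red points of the core and regulatory particle lie mostly above 0 and blue points below 0, while Psmb8 and Psmb9 are reversed and Psmb10 follows the core.

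The alpha ring forms the gate of the core. In keratinocyte-like cells all 7 alpha ring genes lay above the all-gene median in IMQ over normal, with a median log2 ratio of 0.51. Of the 7, 1, Psma6, passed 1.5-fold, near the 17.6% of all measured genes that were higher. Psma6 had 146 CPM in normal, 250 CPM in IMQ and 160 CPM in IMQ+celastrol. It was 1.72-fold higher (1.64 to 1.80) in IMQ and then 1.57-fold lower (1.51 to 1.63) in IMQ+celastrol, so that the outer libraries were close. The alpha ring median for IMQ+celastrol over IMQ was -0.48. In fibroblast-like cells the alpha ring medians were 0.00 and 0.05.

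The beta ring was more even. Its non-catalytic subunits had median log2 ratios of 0.14 and -0.25 in keratinocyte-like cells, with none past 1.5-fold. Psmb1, a structural beta subunit, went against most core genes, with 398 CPM in normal, 344 CPM in IMQ and 353 CPM in IMQ+celastrol. The constitutive catalytic subunits followed the ring as a whole, with medians of 0.21 and -0.36. Psmb5, the chymotrypsin-like subunit, had 302 CPM in normal, 367 CPM in IMQ and 287 CPM in IMQ+celastrol. Psmb6, the caspase-like subunit, had 291, 325 and 250 CPM in the same order. Psmb7, the trypsin-like subunit, had 145, 168 and 131 CPM. All 3 were highest in IMQ and lowest in IMQ+celastrol, and none differed by 1.5-fold. For Psmb6 the log2 ratio of IMQ over normal, 0.16, turned to -0.18 with every cluster named and to -0.13 with only normal cluster 35 and IMQ cluster 10. In fibroblast-like cells Psmb6 had 253, 189 and 215 CPM, being 1.34-fold lower in IMQ (1.28 to 1.40).

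Promoter stretches of 3 of the 6 catalytic subunit genes, Psmb5, Psmb6 and Psmb10, are shown because the standard genes are known targets of NRF1 and the immunoproteasome genes of interferon. Psmb7 had no window in the table used, and the windows of Psmb8 and Psmb9 held no exon-free stretch long enough to print. The sequences are from RefSeq on GRCm38.p6 and run toward the gene, and capitals mark a match to the antioxidant response element core TGACNNNGC. They lie at chr14:54618023-54618172 on the minus strand for Psmb5, chr11:70525207-70525356 on the plus strand for Psmb6 and chr8:105938445-105938594 on the minus strand for Psmb10, all upstream of the annotated gene.
Psmb5: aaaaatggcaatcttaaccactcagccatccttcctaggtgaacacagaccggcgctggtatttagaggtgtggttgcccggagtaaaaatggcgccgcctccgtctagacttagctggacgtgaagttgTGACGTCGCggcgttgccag
Psmb6: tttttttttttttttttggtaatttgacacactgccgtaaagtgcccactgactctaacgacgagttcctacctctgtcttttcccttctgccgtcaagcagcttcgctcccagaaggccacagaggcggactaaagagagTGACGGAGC
Psmb10: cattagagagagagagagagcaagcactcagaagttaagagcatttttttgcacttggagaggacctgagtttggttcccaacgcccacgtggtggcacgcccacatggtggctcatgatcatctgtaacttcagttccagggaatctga
The Psmb10 stretch holds no match. Windows from 250 bases before to 50 after a gene's start were found for 41 of the 49 members, and were searched on both strands. The antioxidant response element core was in 4 of 25 standard 26S genes (16%), in 0 of the 3 immunoproteasome genes and in 14.0% of 27025 genes with a window. The CCAAT box was in 10 of 25 standard 26S genes (40%), against 41.1% of all genes. The heat shock element core GAANNTTC was in 1 of 25 (4%), against 9.04%. The interferon-stimulated response element core, GAAA and GAAA with any 2 bases between, was in 2 of 25 (8%), against 3.99% of all genes. It was in 0 of the 3 immunoproteasome genes. Over all 41 members with a window it was in 5 (12.2%), namely Psmb3, Psmd4, Psmd9, Psme1 and Psmg4. The other motifs were in 14.6% (antioxidant), 34.1% (CCAAT) and 7.32% (heat shock) of the 41. These letter matches are a description of the windows and show no binding.

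The regulatory particle followed the core in keratinocyte-like cells. The 6 base ATPases, which unfold substrates, had a group median of 0.40 in IMQ over normal and then -0.31 in IMQ+celastrol over IMQ. In IMQ over normal 17.6% of all measured genes were higher, and near that share 1 of the 6 ATPases passed 1.5-fold. This was Psmc1, with 55.5 CPM in normal, 101 CPM in IMQ and 67.9 CPM in IMQ+celastrol, 1.83-fold higher (1.70 to 1.96) in IMQ. Of the 3 base non-ATPases, 2 passed 1.5-fold, with a group median of 0.80. Psmd2, a scaffold that docks substrate shuttles, had 92.5, 161 and 124 CPM. Psmd1, the other large scaffold, had 69.8, 121 and 95.1 CPM. Both were highest in IMQ and in IMQ+celastrol remained above normal. Psmd1 overlaps an exon of Gm21972, a gene also counted, on the same strand.

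Of the 8 lid subunits, 4 were at least 1.5-fold higher in IMQ, where 17.6% of all measured genes were, with a group median of 0.50. Psmd7, the partner of the deubiquitinase, had 152 CPM in normal, 232 CPM in IMQ and 151 CPM in IMQ+celastrol. Psmd14, the deubiquitinase that removes ubiquitin chains from substrates, was 1.51-fold higher in IMQ (1.43 to 1.60). Psmd12 was 1.57-fold higher (1.48 to 1.66) and Psmd3 1.56-fold higher (1.47 to 1.66), both being structural lid subunits. In IMQ+celastrol over IMQ the lid median was -0.41. Psmd7 was the lid subunit past the threshold, 1.54-fold lower (1.48 to 1.61), where 10.2% of all measured genes were lower. Fibroblast-like cells had 1 standard subunit past 1.5-fold, Psmd2, with 66.8, 107 and 103 CPM, 1.60-fold higher (1.49 to 1.73) in IMQ. Their lid medians were 0.15 and 0.07.

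The immunoproteasome catalytic subunits separated cell types more than the standard subunits did. Psmb8 and Psmb9 lie in the MHC region, at chr17:34197721-34201454 on the plus strand and chr17:34181987-34187764 on the minus strand of GRCm38, and Psmb10 at chr8:105935735-105938444 on the minus strand. Psmb9 overlaps an exon of Tap1, and Psmb8 one of Gm20496, on opposite strands, and whether the counting used strand is not given in the sources used here. Psmb10 overlaps no other annotated exon. In normal skin Psmb8, Psmb9 and Psmb10 together made up 63.2% of the UMIs of the 6 catalytic genes in blood endothelial-like cells, 62.3% in dendritic-like cells, 61.7% in monocyte or macrophage-like cells and 54.8% in Langerhans-like cells. The same share was 31.2% in fibroblast-like cells, 21.1% in keratinocyte-like cells and 6.6% in cluster 17, which makes up the inner root sheath or hair shaft-like class. The order thus ran from blood endothelial and immune cells down to inner root sheath or hair shaft-like cells, while the first 3 of these shares were close.

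**Figure D3:**
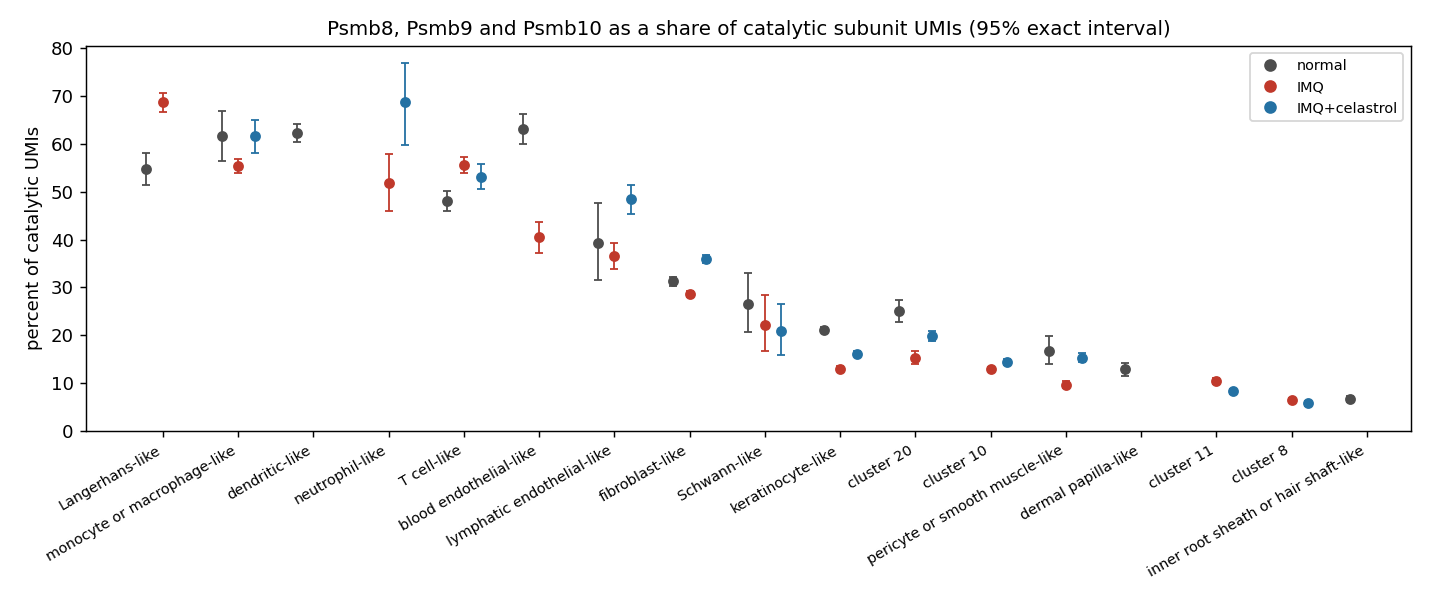
Psmb8, Psmb9 and Psmb10 as a percentage of the UMIs of all 6 catalytic subunit genes (vertical axis) by cell class or cluster (horizontal axis), 1 point per library with at least 50 cells, with exact 95% binomial intervals. Immune and blood endothelial classes lie high, and in keratinocyte-like cells the share is 21.1% in normal, 13.0% in IMQ and 16.1% in IMQ+celastrol.

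In keratinocyte-like cells the immunoproteasome share was lower in IMQ than in normal, with a difference of -8.14 percentage points (95% counting interval -8.87 to -7.41), and 3.15 points higher in IMQ+celastrol than in IMQ (2.48 to 3.81). The first difference was -15.6 points with each library clustered by itself and -14.2 without cluster 7. With only normal cluster 35 and IMQ cluster 10 it was -22.1. The second difference was 1.51 points with the same mix of clusters, which for these 2 libraries was cluster 10 alone. In clusters 8 and 11, which are outside the class, the share was lower in IMQ+celastrol than in IMQ, at 5.76% against 6.38% and at 8.21% against 10.3%. The 3 genes did not move together. Psmb8 had 97.3 CPM in normal, 39.7 CPM in IMQ and 57.7 CPM in IMQ+celastrol. It was 2.45-fold lower (2.26 to 2.66) in IMQ, and then 1.45-fold higher (1.34 to 1.58) in IMQ+celastrol, which does not reach 1.5-fold. Psmb9 had 77.3, 22.2 and 31.6 CPM. It was 3.49-fold lower (3.15 to 3.88) in IMQ and then 1.43-fold higher (1.27 to 1.60). Psmb10 went the other way, with 22.9 CPM in normal, 66.3 CPM in IMQ and 39.0 CPM in IMQ+celastrol. It was 2.89-fold higher (2.61 to 3.21) in IMQ and then 1.70-fold lower (1.57 to 1.84).

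As a share of the UMIs of Psmb8, Psmb9 and Psmb10 together, Psmb10 made up 11.6% (10.7 to 12.6) in normal keratinocyte-like cells, 51.7% (49.8 to 53.7) in IMQ and 30.4% (28.9 to 31.9) in IMQ+celastrol. The 3 intervals lay apart. In fibroblast-like cells the same share was 34.2%, 34.7% and 35.9%, nearly level across the libraries. The opposite signs of Psmb10 against Psmb8 and Psmb9 in keratinocyte-like cells held under every alternative tried, with Psmb10 log2 ratios from 0.66 to 1.69 for IMQ over normal and from -0.84 to -0.42 for IMQ+celastrol over IMQ. The last value, below 1.5-fold, came from giving every cluster a name.

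Cluster 20, filled by all 3 libraries, showed the same split. There Psmb8 had 123 CPM in normal, 46.4 in IMQ and 75.3 in IMQ+celastrol, and Psmb9 was 2.60-fold lower in IMQ and then 1.25-fold higher (0.981 to 1.59), a step whose interval includes no change. Psmb10 in cluster 20 had 30.6, 75.5 and 54.1 CPM, and its share of the 3 genes was 13.1%, 49.4% and 32.2%. In cluster 10 Psmb10 had 67.5 CPM in IMQ and 45.8 CPM in IMQ+celastrol, and Psmb8 had 38.9 and 47.8 CPM. Clusters 20 and 10 thus had the direction seen in the class. Clusters 8 and 11 did not for Psmb8, which went from 16.8 CPM in IMQ to 10.3 CPM in IMQ+celastrol in cluster 8 and from 30.4 to 21.5 CPM in cluster 11. Psmb9 went from 12.9 to 10.8 CPM in cluster 8 and from 20.7 to 15.97 CPM in cluster 11. Psmb10 was also lower in IMQ+celastrol in cluster 11, with 43.3 and 27.7 CPM, so that there all 3 genes moved one way. Cluster 35 of normal skin, whose cell cycle list was above that of cluster 10 in IMQ (3302 against 1402 CPM), had 21.9 CPM of Psmb10 and 213.9 CPM of Psmb8. Levels of Psmb8 varied widely among normal keratinocyte-like clusters, with 155.6 CPM in cluster 4 and 19.96 CPM in cluster 7.

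**Figure D4:**
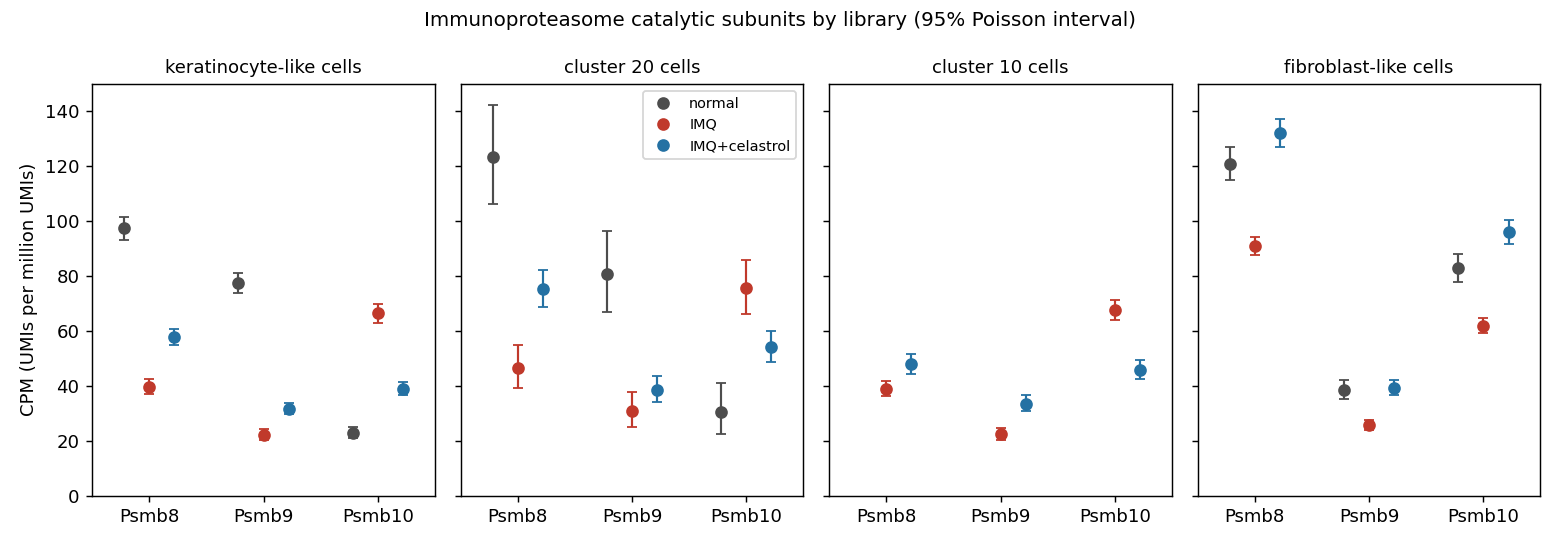
CPM (vertical axis, from 0) of Psmb8, Psmb9 and Psmb10 (horizontal axis) in keratinocyte-like cells, clusters 20 and 10 and fibroblast-like cells, 1 point per library with at least 50 cells, with exact 95% Poisson intervals. In keratinocyte-like cells and cluster 20 Psmb10 is highest in IMQ while Psmb8 and Psmb9 are lowest there, and in fibroblast-like cells all 3 are lowest in IMQ.

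The share of cells with a UMI was compared after each cell was thinned to 3000 UMIs, which 2296 of 2435, 394 of 400 and 889 of 904 keratinocyte-like cells reached. Psmb10 was then seen in 6.2% of normal, 16.9% of IMQ and 9.9% of IMQ+celastrol keratinocyte-like cells, against 15.9%, 83.8% and 55.9% before thinning. Psmb8 was seen in 22.6%, 11.3% and 15.4% after thinning, and in 42.6%, 67.0% and 66.0% before. The unthinned order for Psmb8 goes against its CPM, since IMQ cells were the deepest. In the inner root sheath or hair shaft-like cells of normal skin, the class with the lowest immunoproteasome share, thinned cells had a UMI of Psmb8 in 2.49% and of Psmb10 in 15.3%, with a median depth of 10363 UMIs.

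In fibroblast-like cells all 3 immunoproteasome genes were lowest in IMQ. Psmb8 had 121 CPM in normal, 91.0 CPM in IMQ and 132 CPM in IMQ+celastrol. Psmb9 had 38.5, 25.6 and 39.3 CPM, lower in IMQ by a ratio whose interval was 1.34 to 1.68 and then 1.53-fold higher (1.39 to 1.69). Psmb10 had 82.7, 61.9 and 95.8 CPM, being 1.34-fold lower (1.24 to 1.44) and then 1.55-fold higher (1.45 to 1.65). Normal and IMQ+celastrol were thus close for Psmb9, and IMQ lay below both for each gene. With the same mix of clusters in both libraries the Psmb8 log2 ratio for IMQ over normal was 0.04 in place of -0.41. The immunoproteasome share was 31.2% in normal, 28.6% in IMQ and 35.9% in IMQ+celastrol, 7.28 points higher (6.29 to 8.27) in the last step. Clusters 1 and 6 carried the widest gaps, from 27.5% in IMQ to 43.8% in IMQ+celastrol and from 29.6% to 39.0%, while cluster 2 had 18.3% in IMQ and 16.01% in IMQ+celastrol.

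Other classes moved in different directions. In Langerhans-like cells Psmb8 had 449 CPM in normal and 799 CPM in IMQ, and Psmb10 had 52.0 and 102 CPM. In blood endothelial-like cells Psmb8 had 406 and 204 CPM and Psmb10 160 and 75.0 CPM, both lower in IMQ. Pericyte or smooth muscle-like cells had their lowest Psmb9 in IMQ, with 26.6 CPM in normal, 9.94 CPM in IMQ and 22.3 CPM in IMQ+celastrol. In monocyte or macrophage-like cells Psmb10 had 186, 178 and 269 CPM, and in lymphatic endothelial-like cells 83.3, 73.1 and 119 CPM. Pericyte or smooth muscle-like cells had 62.6, 41.5 and 62.9 CPM of Psmb10. Cluster 5 (Timp4, Sncg, Mustn1) held 390 of 504 of these cells in IMQ and 353 of 455 in IMQ+celastrol. Psmb10 in cluster 5 had 25.99 CPM (21.46 to 31.20) in IMQ and 29.48 CPM (24.38 to 35.33) in IMQ+celastrol, with overlapping intervals. In cluster 32 (H2-M9, Rgs5, Higd1b), which held the rest of the class, Psmb10 had 75.51 and 136.0 CPM. In T cell-like cells, known for constant immunoproteasome use, Psmb8 had 280, 413 and 394 CPM. Its clusters differed, since from normal to IMQ Psmb8 went from 231 to 157 CPM in cluster 9, led by Cd7 and Cd3g, from 218 to 399 CPM in cluster 22, led by Il17a and Il22, and from 403 to 562 CPM in cluster 23, led by Ccl5 and Ifng. Taken as whole classes, these lymphatic, mural and myeloid cells thus had more Psmb10 in IMQ+celastrol than in IMQ, and keratinocyte-like cells less.

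The activators open the core without the regulatory particle. Psme1 and Psme2 encode the interferon-inducible ring PA28 alpha-beta, and Psme3 the nuclear PA28 gamma. In keratinocyte-like cells Psme1 had 160 CPM in normal, 90.3 CPM in IMQ and 125 CPM in IMQ+celastrol, being 1.78-fold lower (1.68 to 1.88) in IMQ. Psme1 overlaps an exon of Emc9 on the opposite strand. Psme2 had 193, 167 and 192 CPM, with no step past 1.5-fold. Psme3 went against both, with 34.3, 71.9 and 46.9 CPM, 2.10-fold higher (1.92 to 2.29) in IMQ and then 1.53-fold lower (1.42 to 1.65). Psme4, encoding the large activator PA200, had 57.9, 74.9 and 71.8 CPM. Psme2b, with 544 UMIs in all, is a near-identical copy of Psme2 and uncertain, at 1.45 CPM in normal and 0.963 CPM in IMQ. It also overlaps an exon of 9930111J21Rik1, a gene also counted, on the same strand. In fibroblast-like cells Psme2 had 155, 103 and 141 CPM, 1.51-fold lower (1.43 to 1.59) in IMQ, and Psme1 had 132, 125 and 159 CPM. Psmf1, encoding the inhibitor PI31, had 18.9, 19.5 and 14.6 CPM in keratinocyte-like cells, where no step passed 1.5-fold.

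The assembly chaperones help build the rings and leave the finished particle. Of the 4 chaperones of the 20S core, 1 passed 1.5-fold in keratinocyte-like cells. Of all genes measured there 17.6% were higher in IMQ over normal, and 10.2% lower in IMQ+celastrol over IMQ. Psmg1 had 35.7 CPM in normal, 68.8 CPM in IMQ and 44.9 CPM in IMQ+celastrol. It was 1.93-fold higher (1.77 to 2.11) in IMQ and then 1.53-fold lower (1.42 to 1.65), as in the core genes. Psmg4 went the other way, with 55.5, 42.6 and 35.4 CPM. Among the chaperones of the base, Psmd5 had 18.5, 31.5 and 25.6 CPM. In fibroblast-like cells all 4 chaperones of the 20S core lay below the all-gene median in IMQ over normal and above it in IMQ+celastrol over IMQ. There Psmg4 had 59.6, 38.1 and 48.4 CPM, 1.56-fold lower (1.43 to 1.71) in IMQ. Psmd10, a base chaperone also called gankyrin, had 18.9, 24.3 and 16.2 CPM in fibroblast-like cells, 1.51-fold lower (1.32 to 1.72) in IMQ+celastrol than in IMQ. Psmc3ip is named after a base ATPase it binds but serves in meiotic recombination, and is no proteasome subunit. It had 9.28, 3.85 and 6.54 CPM in fibroblast-like cells and 18.9, 22.8 and 15.1 CPM in keratinocyte-like cells.

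The remaining genes with the outermost ratios stayed within 1.5-fold. Psmb4, a structural beta subunit, had 295 CPM in normal, 283 CPM in IMQ and 261 CPM in IMQ+celastrol keratinocyte-like cells. In fibroblast-like cells the log2 ratio for IMQ over normal was 0.53 for Psmc1 and 0.43 for Psme3. For IMQ+celastrol over IMQ it was -0.26 for Psmd8, a lid subunit, -0.11 for Psmc1 and 0.44 for Psmg2, a chaperone of the alpha ring.

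Genes around the proteasome were read from lists of related genes. In IMQ over normal, where 17.6% of all genes were higher, a near share of 6 other proteasome genes, 1, was at least 1.5-fold higher in keratinocyte-like cells. This was Uchl5, a deubiquitinase of the regulatory particle, with 49.6 CPM in normal, 99.6 CPM in IMQ and 64.8 CPM in IMQ+celastrol. Of 12 genes known to rise under proteasome inhibition, 5 were higher and 2 lower in IMQ over normal, where 17.6% of all genes were higher and 30.6% lower, with a list median of 0.54. The summed level of the 12 went the other way, with 5739 CPM in normal, 3486 CPM in IMQ and 3932 CPM in IMQ+celastrol. In IMQ+celastrol over IMQ 2 were higher (Dnajb1 and Atf3) and 1 lower (Trib3), where 10.1% of all genes were higher and 10.2% lower, with a list median of -0.14 beside -0.07 over all genes. Dnajb1 encodes a heat shock chaperone and had a log2 ratio of 0.66, Atf3 a stress transcription factor with 0.60, and Trib3 a pseudokinase of the integrated stress response with -0.83. In fibroblast-like cells 7 of 12 were higher in IMQ over normal and none lower, where 15% of all genes were higher and 15.8% lower. None was higher and 3 were lower in IMQ+celastrol over IMQ, where 12.5% of all genes were higher and 6.07% lower. These 3 were Trib3 (-0.93), Zfand2a (-0.79) and Sqstm1 (-0.66). Of 7 transcription factors and activators around NRF1, 1 was higher and none lower in keratinocyte-like cells for IMQ+celastrol over IMQ. Of all genes 10.1% were higher and 10.2% lower there. Nfe2l2, which encodes the related factor NRF2, had 82.6 CPM in normal, 152 CPM in IMQ and 171 CPM in IMQ+celastrol keratinocyte-like cells. Its last step stayed below 1.5-fold, so it was not the gene counted as higher.

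The MHC class I loading genes, which use the peptides the proteasome makes, were mostly lower in keratinocyte-like cells of IMQ, as were Psmb8 and Psmb9. Of 10 such genes 7 were lower and 1 higher, where 30.6% of all genes were lower and 17.6% higher, with a median log2 ratio of -1.05 beside -0.15 over all genes, and for IMQ+celastrol over IMQ 3 were higher and none lower, where 10.1% and 10.2% of all genes were, with a median of 0.36. Tap1, a subunit of the peptide transporter, had log2 ratios of -1.44 and 0.71, with the reservation that it overlaps Psmb9. Irf9, a transcription factor of the interferon response, had log2 ratios of -1.69 for IMQ over normal and 1.14 for IMQ+celastrol over IMQ in keratinocyte-like cells. In fibroblast-like cells 1 of the MHC class I loading genes was higher in IMQ over normal, where 15% of all genes were. For IMQ+celastrol over IMQ 2 were higher there, where 12.5% of all genes were. Summed over 12 leukocyte transcripts, keratinocyte-like cells had 63.9, 31.6 and 21.1 CPM and fibroblast-like cells 62.0, 42.1 and 27.9 CPM. None of the 12 was at 0 in either class, and Ptprc, which defines leukocytes, stood at 0.588, 1.88 and 0.696 CPM in keratinocyte-like cells and 0.690, 1.25 and 0.639 CPM in fibroblast-like cells. The part of such RNA in the immunoproteasome levels was not tested.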

How the data were processed

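The authors deposited raw UMI counts per gene and cell for 3 libraries, and the file headers name Cell Ranger 4.0.0 as the software that wrote them. Whether the counting used strand is not given in the sources used here. Cells with under 300 genes or over 20% mitochondrial UMIs, and the top-scoring 0.8% per 1000 cells as doublets by Scrublet, were left out, because the caller's own threshold marked 182, 0 and 92 cells. The doublets left out numbered 870, 513 and 330. Cells were clustered together in scanpy 1.11.5 (2000 variable genes, 30 principal components, 15 neighbours, Leiden resolution 1) and named from marker lists. A minimum score of 0.4 for a name was set after the clusters were seen. UMIs were summed per class and library. Ratios have exact conditional binomial intervals and shares Clopper-Pearson intervals, at the 95% level. Their coverage was tested on simulated data. Genes named are the catalytic subunits, Psme1 and Psme2, members past 1.5-fold in a main class, and the 3 highest and 3 lowest ratios there, besides list members. The members and lists were chosen with earlier results of these data known. A comparison of protein sequences between catalytic subunits was not run.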

Additional observations from a re-analysis of the deposited data

Results flagged for a closer look

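Some members had opposite signs in different cell classes under the same comparison, each past 1.5-fold. With 1 library per group these differences between classes were not tested. For IMQ over normal the Psmb10 log2 ratio was 1.53 in keratinocyte-like and 0.98 in Langerhans-like cells, but -1.10 in blood endothelial-like and -0.59 in pericyte or smooth muscle-like cells. For IMQ+celastrol over IMQ the Psmb10 log2 ratio was -0.77 in keratinocyte-like cells, but 0.63 in fibroblast-like, 0.70 in lymphatic endothelial-like, 0.60 in monocyte or macrophage-like and 0.60 in pericyte or smooth muscle-like cells. The pericyte or smooth muscle-like value pooled clusters that differed. Cluster 5, with most of the cells, had overlapping Psmb10 intervals in IMQ and IMQ+celastrol, and cluster 32 had more in IMQ+celastrol. Psmb8 had log2 ratios for IMQ over normal of 0.83 in Langerhans-like cells, -1.29 in keratinocyte-like cells and -0.99 in blood endothelial-like cells. Psmc3ip had log2 ratios for IMQ+celastrol over IMQ of 0.76 in fibroblast-like and -0.59 in keratinocyte-like cells.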

How the results depend on the processing

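No paired analysis was possible because each group has 1 library. The standard 26S median log2 ratio in keratinocyte-like cells for IMQ over normal (0.40) was 0.089 with every cluster named, 0.55 with median-of-ratios scaling, 0.47 as a mean over cells and 0.27 with normal cluster 35 and IMQ cluster 10 only. For IMQ+celastrol over IMQ (-0.38) it was -0.26 with each library clustered by itself, -0.26 with every cluster named, -0.24 with mitochondrial, ribosomal and the top 50 genes out of the total, -0.31 with median-of-ratios scaling, -0.20 with the same cluster mix and -0.45 as a mean over cells. In fibroblast-like cells it was 0.27 for IMQ over normal as a mean over cells (0.09) and -0.079 for IMQ+celastrol over IMQ with median-of-ratios scaling (0.06). The immunoproteasome share difference in keratinocyte-like cells for IMQ minus normal (-8.14 points) was -6.80 with called doublets kept, -7.00 with the doublet caller's own threshold, -15.6 with each library clustered by itself, -6.52 with every cluster named, -14.2 without cluster 7 and -22.1 with clusters 35 and 10 only. The last 2 alternatives were chosen after seeing the data. For IMQ+celastrol minus IMQ (3.15) it was 2.36 with each library clustered by itself and 1.51 with the same cluster mix. In fibroblast-like cells the difference for IMQ minus normal (-2.61) was -1.36 with doublets kept, -0.97 with the same mix and -4.25 without cycling cells. For IMQ+celastrol minus IMQ (7.28) it was 6.08 with doublets kept, 6.28 with the caller's threshold, 8.68 with each library clustered by itself, 6.20 with a mitochondrial limit of 10% and 5.49 with the same mix. The cause of these shifts was not tested. Of 904 alternatives for single members 884 had the sign of the reported value. The minimums of 20 and 200 UMIs change which members are measured and not their ratios, so they could not alter a sign. Of the 904, 705 stayed within the counting interval of the reported value, 198 moved outside it and 1 past 1.5-fold reversed. The reversed value was Psme2b in keratinocyte-like cells (IMQ over normal), which turned to 0.27 with every cluster named. In keratinocyte-like cells the removal of cycling cells gave no value in either comparison, since a library was left with under 50 cells. The same cluster mix gave none for IMQ over normal, since no cluster of the class held 50 cells in both libraries. For IMQ+celastrol over IMQ in these cells it held cluster 10 alone. Depth limits the least abundant members, Psme2b and Psma8.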
